A study of Mus musculus with 6 samples.

Results

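The AMPA-type glutamate receptor subunit genes Gria1, Gria2, Gria3 and Gria4 and 6 genes for their auxiliary proteins were followed across neurons with and without Tlr7. The 10 genes were chosen by name, as the rows of the gene table for Gria1 to Gria4, Cacng2, Cacng3, Cacng4, Cacng8, Cnih2 and Cnih3, out of 25814 genes listed, and all 10 passed the filter on low counts. Messenger RNA came from primary mouse neurons, a mixture of cortical and hippocampal cells of C57BL/6 background, collected on day 18 in vitro. There were 3 libraries of wild-type (WT) neurons and 3 of Tlr7-/- neurons, without the receptor that senses single-stranded RNA in endosomes, and the labels name no other agent. Whether a replicate was its own culture or animal is not stated, and p-values here therefore reflect only the spread among these samples, which may be technical.

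AMPA receptors carry most of the fast excitatory current at brain synapses. They are tetramers of the subunits GluA1 to GluA4, the products of Gria1 to Gria4, and receptors that contain edited GluA2 pass little calcium. In the endoplasmic reticulum and at the synapse the pore-forming subunits bind auxiliary proteins, among them the transmembrane AMPA receptor regulatory proteins, or TARPs (stargazin from Cacng2, and the products of Cacng3, Cacng4 and Cacng8), and the cornichons (from Cnih2 and Cnih3), which alter export, anchoring and channel kinetics.

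Coding stretches of the subunits are shown because they carry the differences that give the mix of subunits its meaning. The first set covers the pore loop up to the end of its exon, with the codon of the Q/R site in capitals. In Gria2 transcripts an adenosine of this codon is edited to inosine by the enzyme ADAR2, from Adarb1. Sequences are GENCODE M21 transcripts on GRCm38, written 5′ to 3′ on the coding strand.
Gria1: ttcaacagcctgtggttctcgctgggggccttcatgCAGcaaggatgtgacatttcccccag
Gria2: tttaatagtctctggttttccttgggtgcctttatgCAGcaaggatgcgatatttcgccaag
Gria3: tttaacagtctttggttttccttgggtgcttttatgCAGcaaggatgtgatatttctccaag
Gria4: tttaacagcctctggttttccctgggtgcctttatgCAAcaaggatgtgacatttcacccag
They lie in exon 11 of Gria1 (chr11:57243058-57243119, plus strand), exon 11 of Gria2 (chr3:80706888-80706949, minus strand), exon 11 of Gria3 (chrX:41610229-41610290, plus strand) and exon 12 of Gria4 (chr9:4464114-4464175, minus strand). Between any pair of subunits 49 to 57 of the 62 bases were identical, most between Gria2 and Gria3. All 4 genes carry a glutamine codon at this site, CAG in Gria1, Gria2 and Gria3 and CAA in Gria4. Counts per gene do not read editing, so the edited share of Gria2 was not measured here.

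The second set is the last 30 bases of the coding sequence, in which the capitals mark the 4 codons ahead of the stop codon. In Gria1, Gria2 and Gria3 these encode the tail end that scaffold proteins with PDZ domains bind. The partners are SAP97 for GluA1, and GRIP and PICK1 for GluA2 and GluA3. The stretch of Gria4 is shown for comparison.
Gria1: gggatgcccttgggaGCCACAGGATTGtaa
Gria2: gtatatggcatcgagAGTGTTAAAATTtag
Gria3: gtgtatggaacagaaAGTGTTAAGATCtag
Gria4: ttggctgtcattgcaTCGGACCTACCAtaa
They lie at chr11:57327617-57327646 in exon 16 of Gria1, chr3:80689106-80689135 in exon 15 of Gria2, chrX:41672435-41672464 in exon 15 of Gria3 and chr9:4420152-4420181 in exon 17 of Gria4. Gria2 and Gria3 shared 23 of these 30 bases, and every other pair shared 7 to 11.

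Total counts were 23272450 to 25696625 per library, and the 10 genes together took 43670 to 59077 counts in a library. Tlr7 had 4 to 8 counts in WT and 3 to 5 in Tlr7-/- libraries, too few to check the genotype by its level. The Tlr7-/- libraries did not stand together: replicates 2 and 3 carry another style of library name in the labels than the other 4 libraries. Counts of Tlr7-/- replicates 2 and 3 differed from those of replicate 1 by 71.7 to 75.5 times counting noise (chi-square per degree of freedom over genes), against 4.27 to 11.8 between other pairs of 1 genotype. The share of counts from the mitochondrial genome was 4.19% to 4.4% in these replicates and 2.6% to 3.14% in the other 4. All WT libraries carry the first name style, so in replicates 2 and 3 genotype and name style cannot be told apart, and each change is given for the whole Tlr7-/- group, for its replicate 1, and for its replicates 2 and 3.

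The labelled cell type was checked against marker genes. All 8 neuronal markers were counted in every library, with a summed level of 5351 to 5522 CPM (counts scaled to the total of the library) in WT and 5253 to 5773 CPM in Tlr7-/- libraries. Single markers moved both ways under this sum. Tubb3 had 776 to 846 CPM in WT and 349 to 603 CPM in Tlr7-/- libraries, and Map2 had 961 to 1032 and 1255 to 1490 CPM. In replicates 2 and 3 against WT 3 of the 8 had an edgeR adjusted p under 0.05 and were higher, and 4 lower, against 24.4% and 25.2% of all genes tested. The 7 markers of excitatory neurons summed to 2828 to 2959 CPM in WT and 2772 to 3205 CPM in Tlr7-/- libraries. Of these, Slc17a7 had 1002 to 1041 CPM in WT and 757 to 920 CPM in Tlr7-/- libraries. In replicates 2 and 3 against WT 2 of the 7 were called higher and 2 lower, against the same shares of all genes. Glia were present too. The 9 astrocyte markers summed to 5010 to 5223 CPM in WT, 4175 CPM in Tlr7-/- replicate 1 and 4937 to 5368 CPM in replicates 2 and 3. The 8 markers of oligodendrocyte precursors, cells that also carry AMPA receptors, summed to 1060 to 1064 CPM in WT, 744 CPM in Tlr7-/- replicate 1 and 526 to 692 CPM in replicates 2 and 3. The 8 myelin markers summed to 430 to 479 CPM in WT and 213 to 324 CPM in Tlr7-/- libraries, with Mog at 0 in a library, and the 7 microglial markers summed to at most 13.7 CPM, with Cx3cr1 and Tmem119 at 0 in a library. In replicates 2 and 3 against WT the precursor markers had a median log2 fold change of -1.16. It was -0.52 once trends in GC content and transcript length, described below, were taken out. The same values were -1.15 and -0.90 for the 7 myelin markers tested, and -0.18 and -0.16 for the astrocyte markers. The part of these shifts in the results below was not tested, and in bulk samples fewer cells of a type and less RNA per cell cannot be told apart.

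In WT neurons Cnih2 and Gria1 were the most abundant of the 10 messages per length. On the authors' TPM scale, which divides by gene length, Cnih2, a cornichon of hippocampal and cortical neurons, stood at 675 ± 32.6 TPM (SD, n = 3, as for each level here). Gria1, the subunit that is inserted into synapses during potentiation, stood at 284 ± 4.19 TPM. Cnih3, the second cornichon (107 ± 5.42 TPM), Cacng3, the TARP γ-3 gene (106 ± 3.36 TPM), and Gria2 (105 ± 10.7 TPM) did not differ beyond their spread. Next came Cacng4, the TARP γ-4 gene (70.9 ± 5.16 TPM), and Cacng8, the TARP γ-8 gene known from hippocampal synapses (68.4 ± 3.69 TPM), which did not differ beyond their spread either. Gria3 followed at 58.9 ± 5.8 TPM, the stargazin gene Cacng2 at 39.8 ± 2.35 TPM and Gria4 at 34.2 ± 1.23 TPM. The scale depends on the gene length used: the protein-coding transcripts of Gria2 annotated in GENCODE M21 are 10371 and 4026 bases long, and which of them these neurons used was not measured.

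**Figure D1:**
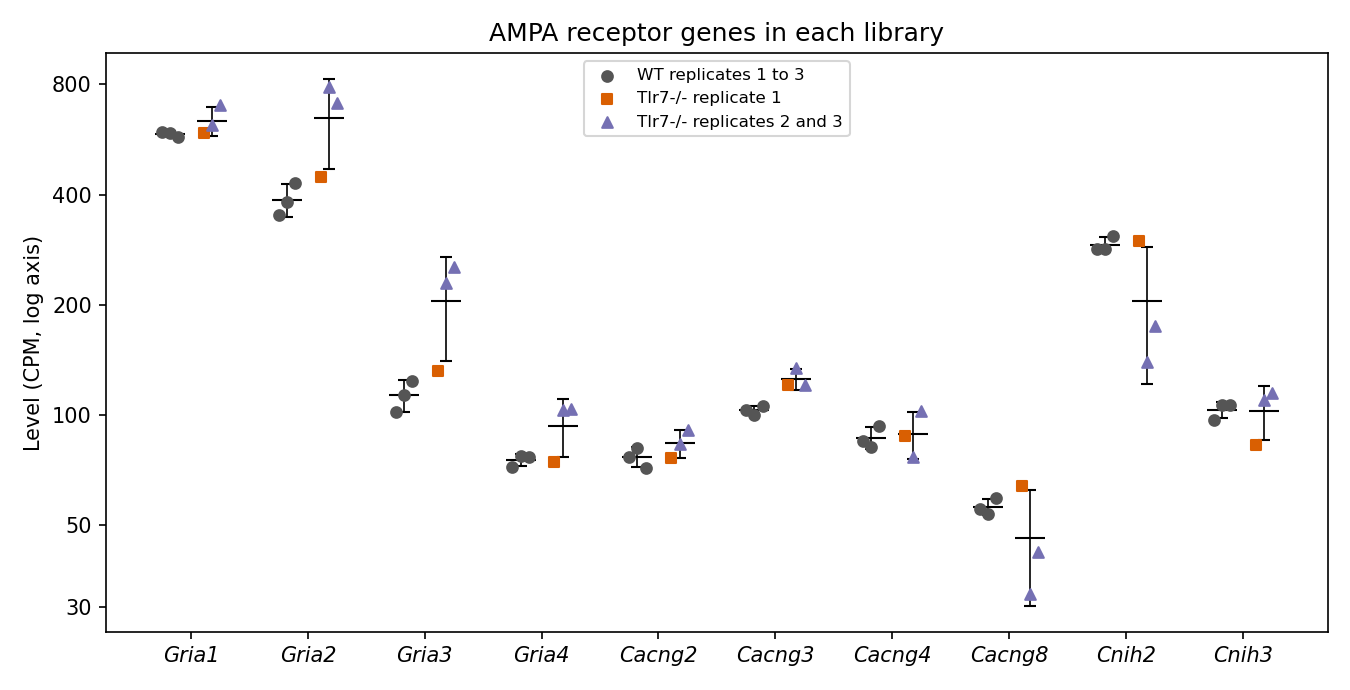
Level of each gene in CPM (log axis) in the 3 WT and 3 Tlr7-/- libraries, 1 point per library, with group means and SD as bars. Tlr7-/- replicates 2 and 3 lie far above WT for Gria2 and Gria3 and far below it for Cnih2, while replicate 1 lies near WT.

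The main comparison asked whether loss of Tlr7 altered the messages for these proteins. With all 6 libraries no gene of the 10 passed edgeR's quasi-likelihood test at a Benjamini-Hochberg adjusted p of 0.05, and of the 13947 genes tested 0% passed. An unadjusted p under 0.05 was reached by 3 of the 10, against 28.2% of all genes tested. All 3 Tlr7-/- libraries lay above all 3 WT libraries in CPM for 3 of the 10 (Gria2, Gria3 and Cacng3), against 15.9% of all genes tested. They lay below all WT libraries for 0 of the 10, against 16.8%, and a gap in either direction was found for 32.7%. The median log2 fold change was 0.11 over the 10 genes and 0.0015 over all genes tested. DESeq2's Wald test called 3 of the 10, namely Gria2, Gria3 and Cacng3 (adjusted p = 0.0083, 0.00675 and 0.0162). It called 13.7% of the 12849 genes to which it gave an adjusted p. With limma-voom 0 of the 10 were called, against 0% of the 13947 genes tested.

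Gria2, the subunit that sets calcium permeability (ENSMUSG00000033981, GRCm38 chr3:80681450-80802835, minus strand), was higher in every Tlr7-/- library than in any WT library, by a small margin in replicate 1. Its level was 352, 382 and 429 CPM in WT replicates 1 to 3 and 448, 786 and 712 CPM in Tlr7-/- replicates 1 to 3. The groups did not overlap, and the step from the highest WT library to Tlr7-/- replicate 1 was smaller than the range within WT. Group means (± SD, n = 3) were 387 ± 39.2 CPM for WT and 649 ± 178 CPM for Tlr7-/-. The log2 fold change was 0.73 ± 0.20 (SE; edgeR adjusted p = 0.116).

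Gria3, the subunit that pairs with GluA2 in a large class of cortical receptors (ENSMUSG00000001986, chrX:41400854-41678601, plus strand), was likewise higher in every Tlr7-/- library than in any WT library. It stood at 102, 114 and 124 CPM in WT replicates 1 to 3 and at 132, 230 and 254 CPM in Tlr7-/- replicates 1 to 3. Again the groups did not overlap and replicate 1 lay just above WT. The log2 fold change was 0.85 ± 0.23 (SE; edgeR adjusted p = 0.116). The ratio of Gria3 to Gria2 on the TPM scale was 0.554 to 0.57 in 5 of the libraries, and 0.684 in Tlr7-/- replicate 3.

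Gria1, whose product forms both GluA1 homomers and pairs with GluA2 (ENSMUSG00000020524, chr11:57011387-57330244, plus strand), differed little. Its level was 593, 590 and 576 CPM in WT replicates 1 to 3 and 591, 619 and 704 CPM in Tlr7-/- replicates 1 to 3. Replicate 1 lay inside the WT range and replicates 2 and 3 above it. The log2 fold change was 0.11 ± 0.08 (SE; edgeR adjusted p = 0.387). Gria4, the subunit of fast receptors in interneurons and of glial precursors (ENSMUSG00000025892, chr9:4417896-4796234, minus strand), had 72.3, 77.4 and 76.9 CPM in WT replicates 1 to 3 and 74.3, 103 and 104 CPM in Tlr7-/- replicates 1 to 3. Tlr7-/- replicate 1 again lay among the WT libraries. Its log2 fold change was 0.30 ± 0.13 (SE; edgeR adjusted p = 0.179). The summed level of 12 markers of GABAergic interneurons was 2177 to 2223 CPM in WT and 1923 to 2138 CPM in Tlr7-/- libraries. Its members moved both ways: Sst had 283 to 301 CPM in WT and 63.3 to 210 CPM in Tlr7-/- libraries, and Gad2 had 198 to 212 and 232 to 262 CPM. In replicates 2 and 3 against WT 3 of the 12 were called higher and 5 lower, against 24.4% and 25.2% of all genes tested. Their median log2 fold change there was -0.24, and -0.13 once the trends in GC content and transcript length were taken out.

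Taken apart by name style, 4 of the 10 genes rose and 2 fell in Tlr7-/- replicates 2 and 3 against WT. This stands against a background of 24.4% of all tested genes called higher and 25.2% called lower in that contrast, 49.6% in all. An unadjusted p under 0.05 was reached by 7 of the 10, against 56.3% of all genes. In Tlr7-/- replicate 1 against WT 0 of the 10 passed, against 1.43% of all genes (0.889% higher and 0.545% lower). In that contrast 2 of the 10 had an unadjusted p under 0.05 (Cacng3 and Cnih3), against 15.4%. These contrasts share the WT libraries, and replicate 1 is a lone sample assumed to vary like the other groups. The difference between replicates 2 and 3 and replicate 1 was itself called for 6 of the 10, against 31.6% of all genes. It was higher for 4 and lower for 2, against 15% and 16.6%, and 6 of the 10 had an unadjusted p under 0.05, against 43%.

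On the log2 scale, Gria3 among the subunits differed from WT by 1.08 ± 0.09 (SE; edgeR adjusted p = 2.88e-05) in replicates 2 and 3 and 0.24 ± 0.11 (adjusted p = 0.352) in replicate 1. Gria2 had 0.93 ± 0.08 (adjusted p = 4.34e-05) and 0.22 ± 0.10 (adjusted p = 0.349). Gria4 had 0.43 ± 0.06 (adjusted p = 0.00037) and -0.0097 ± 0.08 (adjusted p = 0.97). Gria1 had 0.16 ± 0.07 (adjusted p = 0.0838) and 0.026 ± 0.09 (adjusted p = 0.924). The subunits Gria2, Gria3 and Gria4 passed the test in replicates 2 and 3 and Gria1 did not. With a lone library in that arm, where only the WT libraries give a spread, Gria1 had 0.26 for replicate 3 and 0.048 for replicate 2.

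**Figure D2:**
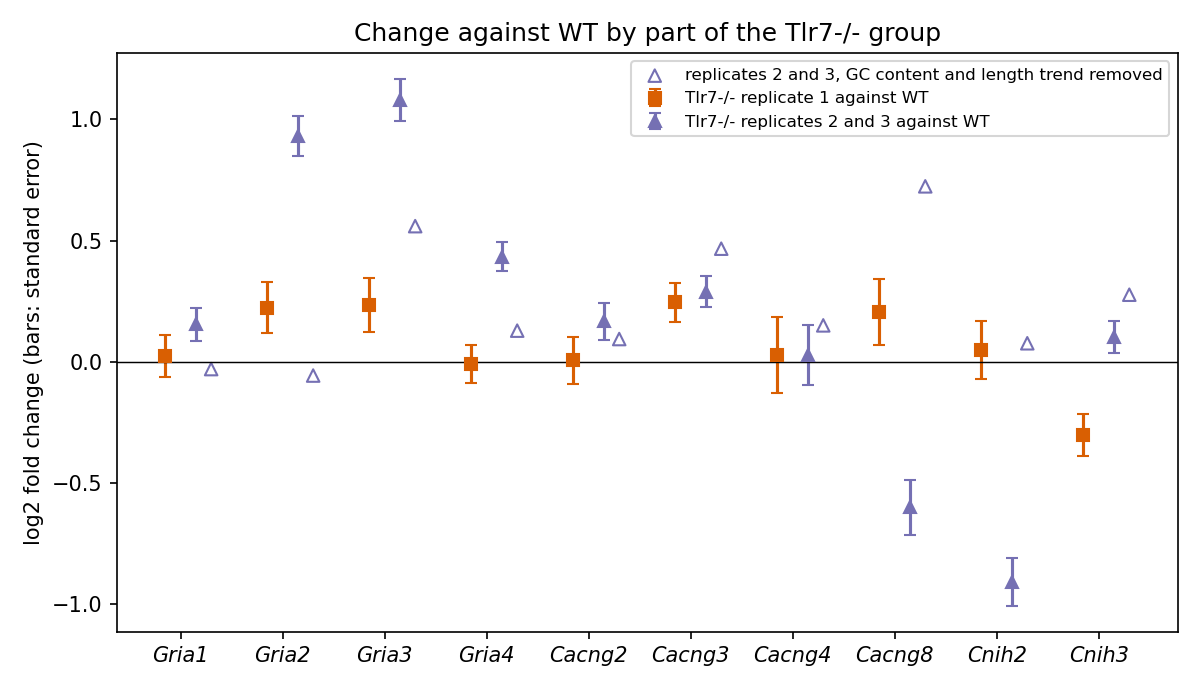
log2 fold change against WT (bars, SE) for Tlr7-/- replicate 1 (squares) and Tlr7-/- replicates 2 and 3 (filled triangles), with open triangles for replicates 2 and 3 once trends in GC content and transcript length were taken out. Gria3, Cacng2, Cacng3 and Cacng4 stay above 0 in all 3 series, Gria2 goes from 0.93 to -0.06 and Cacng8 moves from -0.60 to 0.72.

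Of the TARP genes, Cacng3 (ENSMUSG00000066189, chr7:122670492-122769393, plus strand) was the one with a like difference in all 3 Tlr7-/- libraries. It had 103, 100.3 and 106 CPM in WT replicates 1 to 3 and 121, 135 and 121 CPM in Tlr7-/- replicates 1 to 3. The groups did not overlap, and replicate 1 lay level with replicate 3. The log2 fold change was 0.27 ± 0.07 (SE; edgeR adjusted p = 0.116) with all libraries. It was 0.25 ± 0.08 (adjusted p = 0.183) in replicate 1 and 0.29 ± 0.06 (adjusted p = 0.00483) in replicates 2 and 3, and the difference between these parts was 0.042 ± 0.09 (adjusted p = 0.735).

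Cacng8 (ENSMUSG00000053395, chr7:3390683-3415648, plus strand) went opposite ways in the parts of the Tlr7-/- group. Its level was 55.3, 53.7 and 59.3 CPM in WT replicates 1 to 3 and 64.1, 32.5 and 42.4 CPM in Tlr7-/- replicates 1 to 3. Replicate 1 was the highest of the 6 libraries, and replicates 2 and 3 were the lowest. With all libraries the log2 fold change was -0.28 ± 0.24 (SE; edgeR adjusted p = 0.446). It was -0.60 ± 0.11 (adjusted p = 0.00239) in replicates 2 and 3 and 0.20 ± 0.14 (adjusted p = 0.525) in replicate 1. The 7 markers of hippocampal neurons, where γ-8 is abundant, summed to 560 to 581 CPM in WT, 695 CPM in Tlr7-/- replicate 1 and 474 to 480 CPM in replicates 2 and 3, and their part in the result was not tested. Wfs1 gave the largest part of that sum (261 to 277 CPM in WT and 168 to 370 CPM in Tlr7-/- libraries). Zbtb20 was higher in every Tlr7-/- library (101 to 136 CPM) than in WT (60.7 to 74.7 CPM). Of the 7 markers 2 were called higher and 4 lower in replicates 2 and 3, against 24.4% and 25.2% of all genes tested. The median log2 fold change of the 7 was -0.43 there, and -0.17 once the trends in GC content and transcript length were taken out.

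The stargazin gene Cacng2 (ENSMUSG00000019146, chr15:77991748-78120028, minus strand) ranged from 72 to 81.5 CPM in WT and from 76.4 to 91.4 CPM in Tlr7-/- libraries, and Cacng4 (ENSMUSG00000020723, chr11:107732357-107794557, minus strand) from 82 to 93.7 CPM in WT and from 76.7 to 102 CPM in Tlr7-/- libraries. The groups overlapped for both genes. Their log2 fold changes were 0.11 ± 0.09 (SE; edgeR adjusted p = 0.414) and 0.029 ± 0.12 (adjusted p = 0.888), and neither passed in any contrast by name style. With a lone library against WT, Cacng2 had 0.25 for Tlr7-/- replicate 3 and 0.086 for replicate 2.

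Of the cornichon genes, Cnih2 (ENSMUSG00000024873, chr19:5092871-5098418, minus strand) was lower in Tlr7-/- replicates 2 and 3 and not in replicate 1. It had 285, 284 and 308 CPM in WT replicates 1 to 3 and 299, 140 and 176 CPM in Tlr7-/- replicates 1 to 3. Replicate 1 lay within the WT range and replicates 2 and 3 far under it. The log2 fold change was -0.51 ± 0.27 (SE; edgeR adjusted p = 0.242) with all libraries, 0.048 ± 0.12 (adjusted p = 0.895) in replicate 1 and -0.91 ± 0.10 (adjusted p = 0.000145) in replicates 2 and 3. Cnih2 overlaps Yif1a, a gene on the opposite strand with at most 501 counts in a library, and the strand setting of the counting is not given in the sources used here.

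Cnih3 (ENSMUSG00000026514, chr1:181352628-181460641, plus strand) had 97.2, 106 and 107 CPM in WT replicates 1 to 3 and 83, 110 and 115 CPM in Tlr7-/- replicates 1 to 3. Replicate 1 lay below all WT libraries and replicates 2 and 3 above them. The log2 fold change was -0.019 ± 0.12 (SE; edgeR adjusted p = 0.926) with all libraries, -0.30 ± 0.09 (adjusted p = 0.13) in replicate 1 and 0.10 ± 0.07 (adjusted p = 0.217) in replicates 2 and 3. The difference between these parts was 0.41 ± 0.09 (adjusted p = 0.00933).

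Because the balance of subunits decides receptor type, the share of each subunit in the summed TPM of Gria1 to Gria4 was compared. Shares do not depend on how libraries are scaled. Gria2 made up 20.4%, 21.4% and 23.5% of the sum in the WT libraries and 23.8%, 31.4% and 27.1% of it in Tlr7-/- replicates 1 to 3. Replicate 1 lay just above the highest WT library, and the other Tlr7-/- libraries further above. The mean was 21.8% ± 1.62 in WT and 27.4% ± 3.8 in Tlr7-/- neurons (SD, n = 3; exact permutation p = 0.1, two-sided, which is the lowest value open to 3 against 3; 0.18 adjusted over the 9 shares tested).

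The share of Gria3 lay higher in every Tlr7-/- library than in any WT library, and that of Gria1 lower. Gria3 made up 12.2% ± 0.866 in WT and 16.5% ± 2.7 in Tlr7-/- neurons, with no overlap (exact permutation p = 0.1; n = 3 each). Gria1 made up 61.3%, 59.1% and 56.4% of the sum in the WT libraries and 56.1%, 44.2% and 47.8% of it in Tlr7-/- replicates 1 to 3, again with no overlap (exact permutation p = 0.1). Gria4 made up 7.09% ± 0.14 in WT and 6.68% ± 0.163 in Tlr7-/- neurons (exact permutation p = 0.1; n = 3 each). No share can pass 0.05 in this design. The shares of a family add up to the whole, so higher shares of Gria2 and Gria3 lower the others. Their tests are thus not independent. Gria1 itself stood at 284 ± 4.19 TPM in WT and 330 ± 37.6 TPM in Tlr7-/- neurons (SD). Gria4 stood at 34.2 ± 1.23 and 45.4 ± 9.26 TPM. On log2 TPM the median change of all tested genes was 0.081.

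**Figure D3:**
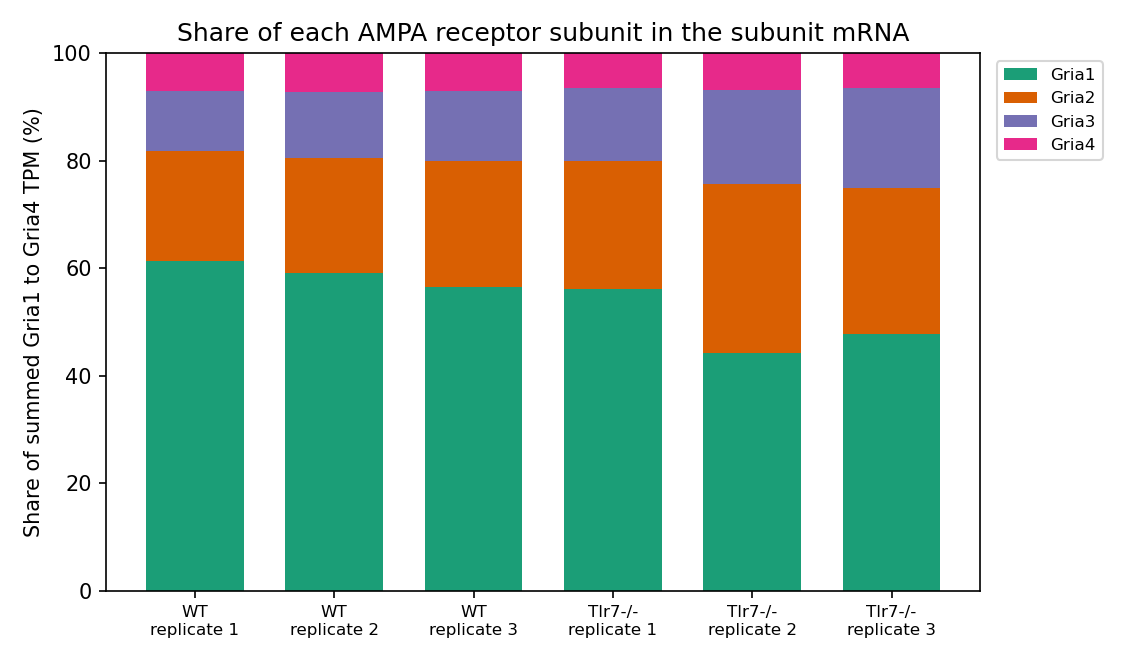
Share of Gria1, Gria2, Gria3 and Gria4 in their summed TPM (%) in each library, stacked from 0 to 100. Gria1 takes 61.3% in WT replicate 1 and 44.2% in Tlr7-/- replicate 2, and the bar of Tlr7-/- replicate 1 resembles those of WT.

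Within the TARP genes the share of Cacng3 was 37.2% ± 0.253 in WT and 43% ± 5.06 in Tlr7-/- neurons without overlap (exact permutation p = 0.1; n = 3 each). The share of Cacng8 ranged from 23.5% to 24.5% over WT libraries, stood at 24.8% in Tlr7-/- replicate 1 and was 13.9% and 16.8% in the other Tlr7-/- libraries (exact permutation p = 0.4; n = 3 each). For the cornichons, Cnih2 held 85.6% to 86.7% of the pair over WT libraries, 88.9% in Tlr7-/- replicate 1 and 74% and 77.2% in the other Tlr7-/- libraries (exact permutation p = 0.4; n = 3 each).

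The size of each change in Tlr7-/- replicates 2 and 3 moved with the base composition of the message. GC content of the longest transcript was 36.8% in Gria2 and 39.8% in Gria3, which were highest, and 62.3% in Cnih2 and 65.1% in Cacng8, which were lowest. The Spearman correlation across the 10 genes between GC content and log2 fold change was -0.842 in replicates 2 and 3 against WT and -0.543 across 13935 tested genes with a GC value. In replicate 1 against WT it was 0.0667 across the 10 genes and -0.132 across all. Genes of 1 library share its depth and base composition, so these values are descriptions.

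The trends in GC content and transcript length were then fitted in each library and taken out. In replicates 2 and 3 against WT this left Gria2 at -0.06 (edgeR adjusted p = 0.496), Cnih2 at 0.077 (adjusted p = 0.572) and Gria4 at 0.13 (adjusted p = 0.103), none past the threshold. Gria3 kept 0.56 (adjusted p = 0.00103) and Cacng3 had 0.47 (adjusted p = 0.000861). Cacng8 turned to the higher side at 0.72 (adjusted p = 0.00168), and Cnih3 passed at 0.28 (adjusted p = 0.0142). On this basis 4 of the 10 were called, against 32.5% of all genes. The difference between replicates 2 and 3 and replicate 1 was then called for 2 of the 10, against 18.8% of all genes. With all 6 libraries 0 of the 10 passed, against 0.00717%, and Gria3 had 0.43 (adjusted p = 0.178), Cacng3 0.41 (adjusted p = 0.161) and Gria2 -0.035 (adjusted p = 0.774). With the same trend divided out of TPM, the share of Gria2 was 25.2% ± 1.21 in WT and 23.9% ± 1.94 in Tlr7-/- neurons, and that of Gria3 was 12.5% ± 0.595 and 16.3% ± 2.29 (SD, n = 3 each). The share of Gria1 then overlapped, at 53.7% to 56.6% in WT and 51.1% to 54.4% in Tlr7-/- libraries, and that of Gria4 turned to 6.88% ± 0.191 in WT and 6.99% ± 0.413 in Tlr7-/- neurons. The share of Cacng3 overlapped as well, at 38.7% to 39.1% in WT and 42.1%, 45% and 37.2% in Tlr7-/- replicates 1 to 3. The share of Cacng8 turned to the higher side, from 19.2% ± 0.679 in WT to 22.8% ± 2.74 in Tlr7-/- neurons.

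**Figure D4:**
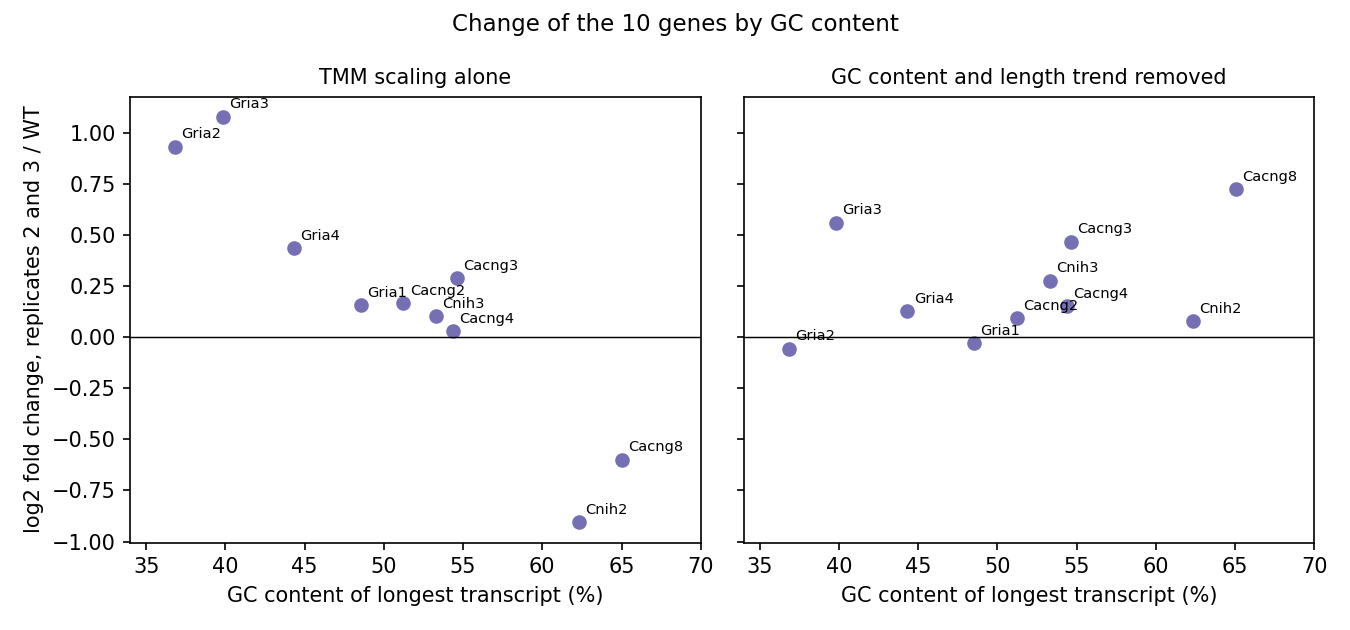
log2 fold change of the 10 genes in Tlr7-/- replicates 2 and 3 against WT by GC content of the longest transcript (%), with TMM scaling alone (left) and with the GC content and length trends taken out (right). On the left Gria3 (1.08) and Gria2 (0.93) have the lowest GC content and Cnih2 (-0.91) and Cacng8 (-0.60) the highest. On the right Gria2 lies at -0.06 and Cacng8 at 0.72.

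The other genes of the pathway were read from 4 lists, of which 107 genes were tested. With all 6 libraries 0 of the 107 passed, and 39 had an unadjusted p under 0.05, against 28.2% of all genes. In Tlr7-/- replicates 2 and 3 against WT 39 were higher and 31 lower, against 24.4% and 25.2% of all genes. With the trend in GC content and length removed these counts were 20 and 28, against 2013 higher and 2514 lower of the 13947 genes tested. In replicate 1 against WT 2 were higher and 0 lower, against 0.889% and 0.545% of all genes.

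Of 31 other auxiliary and assembly genes, 8 were higher and 15 lower in replicates 2 and 3, with a median log2 fold change of -0.16, against 24.4% higher and 25.2% lower and a median of -0.0019 over all genes tested. Once the trends were taken out 10 were higher and 7 lower, against 2013 and 2514 of the 13947 genes tested. The median was then -0.033, against 0.0033 over all genes tested. Frrs1l, which helps assemble AMPA receptors in the endoplasmic reticulum, had 110, 115 and 117 CPM in WT replicates 1 to 3 and 125, 177 and 183 CPM in Tlr7-/- replicates 1 to 3. The change, on the log2 scale, was 0.50 ± 0.14 (SE; edgeR adjusted p = 0.118) with all libraries, and 0.16 once the trends were taken out. In replicates 2 and 3 these values were 0.64 and 0.22. Shisa7, of the CKAMP44 family, had 0.37 ± 0.10 (adjusted p = 0.12) with all libraries, and 0.47 in replicates 2 and 3 both with and without the trend. Nrn1, which encodes neuritin, a protein found in AMPA receptor complexes, had -0.54 ± 0.14 (adjusted p = 0.116), and -0.50 without the trends. Syndig1l, related to SynDIG1, had -0.63 ± 0.14 (adjusted p = 0.116), and -0.29 without the trends. In replicate 1 alone Shisa6 (0.65) and Nptx1 (0.58) were called higher (adjusted p = 0.0483 and 0.0308), both named after their values were seen.

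The largest falls among the 107 genes in replicates 2 and 3 were those of Nptx2 and Arc, both known to be induced by neuronal activity and both named after their values were seen. Nptx2, a secreted pentraxin that clusters AMPA receptors, had 347, 267 and 205 CPM in WT replicates 1 to 3 and 285, 24.5 and 14.6 CPM in Tlr7-/- replicates 1 to 3. Arc, which promotes AMPA receptor endocytosis, had 70.4, 70.8 and 65.5 CPM in WT replicates 1 to 3 and 108, 10.1 and 14.5 CPM in Tlr7-/- replicates 1 to 3. For both genes Tlr7-/- replicate 1 stayed near or above WT and replicates 2 and 3 lay far under it. The log2 fold changes in replicates 2 and 3 were -3.83 ± 0.39 (SE; edgeR adjusted p = 0.00228) for Nptx2 and -2.50 ± 0.14 (adjusted p = 8.16e-06) for Arc, and -3.45 and -2.11 once the trends were taken out.

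Of 40 scaffold and trafficking genes tested, 16 were higher and 11 lower in replicates 2 and 3, against the same 24.4% and 25.2% of all genes. Without the trends 4 were higher and 13 lower, against 2013 and 2514 of the 13947 genes tested. Akap5, the anchor of kinases and calcineurin at GluA1, had 67.9, 66.3 and 83.9 CPM in WT replicates 1 to 3 and 100.2, 103 and 114 CPM in Tlr7-/- replicates 1 to 3, without overlap. Its log2 fold change was 0.53 ± 0.11 (SE; edgeR adjusted p = 0.116) with all libraries, and 0.25 after removal of the trend. Dlg2, the scaffold PSD-93, had 0.32 ± 0.08 (adjusted p = 0.116), and -0.00058 after removal of the trend. Kif5c, a motor that carries receptors into dendrites, had 0.27 ± 0.07 (adjusted p = 0.116), and 0.050 without the trends. Rab4a, a GTPase of recycling endosomes, had -0.49 ± 0.08 (adjusted p = 0.112), and -0.24 without the trends.

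Of 26 kinase, phosphatase and ubiquitin enzyme genes, 11 were higher and 4 lower in replicates 2 and 3, and 4 were higher and 5 lower without the trends. The values over all genes are those given for the scaffold list, 24.4% and 25.2%, and without the trends 2013 and 2514 of 13947 genes. On the log2 scale and with all libraries, Prkacb, a catalytic subunit of protein kinase A, had 0.33 ± 0.08 (SE; edgeR adjusted p = 0.116), and Prkca, protein kinase C alpha, had 0.32 ± 0.08 (adjusted p = 0.116). Ppp3ca, the calcineurin catalytic subunit, had 0.36 ± 0.12 (adjusted p = 0.129), and Usp8, a deubiquitinase, had 0.28 ± 0.09 (adjusted p = 0.124). Without the trends these values were 0.20 for Prkacb, 0.030 for Prkca, 0.19 for Ppp3ca and 0.16 for Usp8. Of 10 RNA editing and splicing genes 4 were higher and 1 lower in replicates 2 and 3, against 24.4% and 25.2% of all genes. Without the trends 2 were higher and 3 lower, against the same 2013 and 2514 of 13947 genes. The named members of that list were Adarb2, an ADAR-family protein without known editing activity (0.52 ± 0.09, adjusted p = 0.112), Srsf2 (-0.46 ± 0.12, adjusted p = 0.116), Rbfox1 (0.45 ± 0.13, adjusted p = 0.122) and Ptbp2 (0.47 ± 0.16, adjusted p = 0.134), all splicing factors but the first. Without the trends Ptbp2 changed sign to -0.20, and the values were 0.28 for Adarb2, -0.33 for Srsf2 and 0.37 for Rbfox1.

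**Figure D5:**
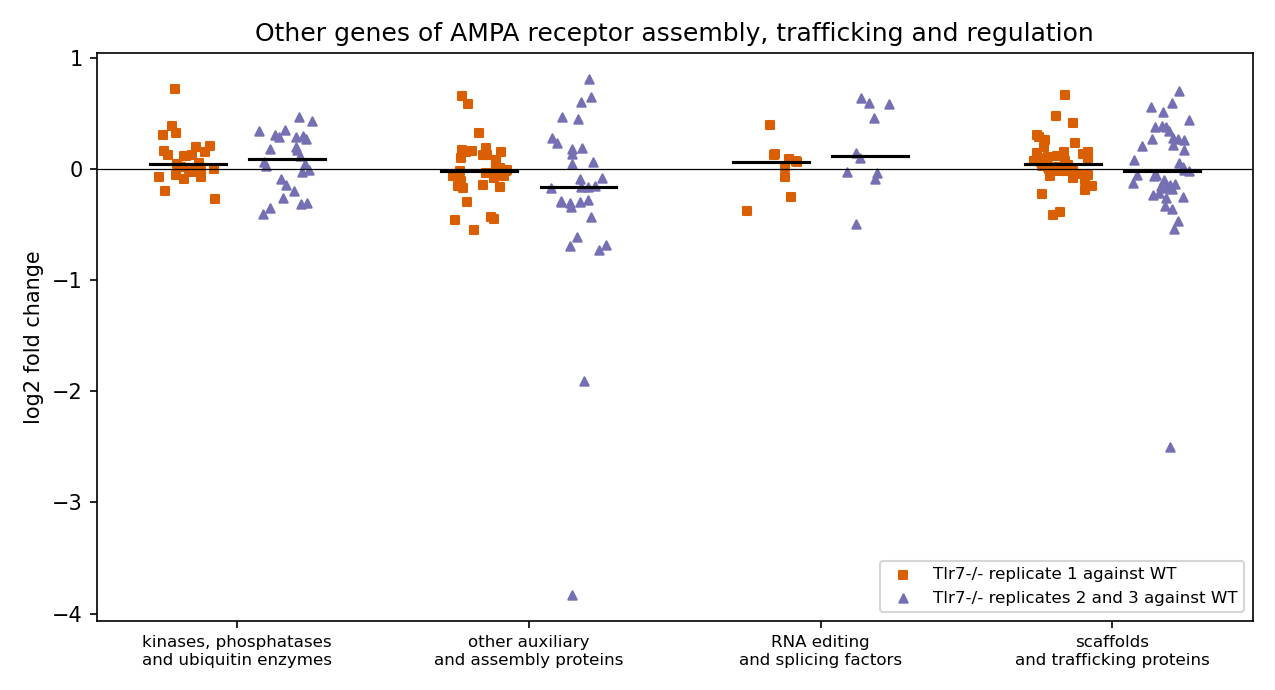
log2 fold change of each tested gene of the 4 pathway lists against WT, for Tlr7-/- replicate 1 (squares) and Tlr7-/- replicates 2 and 3 (triangles), with medians as bars. The lowest triangles are Nptx2 at -3.83 and Arc at -2.50, and the medians of replicates 2 and 3 run from -0.16 to 0.12.

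Among 9874 tested genes with a mean of at least 10 CPM, likeness was measured as the root mean square difference of log2 CPM, centred on the mean of the 6 libraries. Closest to Gria2 were Gabrb2, a GABA-A receptor subunit (0.0245), Chm (0.0321) and Snx13 (0.0335). Closest to Gria1 were Pcdhga1 (0.0135), Sec23ip (0.0175) and Bccip (0.021).

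The authors' deposited table of their edgeR comparison gave Gria3 a log2 fold change of 0.77 with a false discovery rate of 0.0184, and Gria2 0.72 with 0.0232. Of 27420 genes in the authors' deposited table, 1.7% had a false discovery rate under 0.05, and the other 8 of the 10 had 0.233 (Cnih2) or more.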

How the data were processed

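The kit was TruSeq Stranded mRNA, per the labels' protocols. Per the submitters' processing notes, the build was GRCm38.p6 and bcl2fastq, HISAT2, featureCounts and edgeR were used, with no version or role given. Per the file headers, the deposited gene table holds raw total counts, RPKM and TPM values that the authors scaled by gene length. A second deposited table holds the authors' log2 fold changes, p-values and false discovery rates.

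Counts were filtered with filterByExpr (13947 of 25814 genes kept), scaled by TMM and fitted in edgeR 4.0.16 under R 4.3.3 (robust glmQLFit, then glmQLFTest). Benjamini-Hochberg adjustment ran over all genes tested, with a threshold of 0.05. Each SE is the log2 fold change divided by the root of its F statistic. A fit with 3 groups, split by library name style, gave the contrasts within the Tlr7-/- group. TPM served levels and shares, which were compared by exact permutation tests in scipy 1.17.1. GC content and length came from GENCODE M21 (99.9% of genes) and their trends were removed as offsets (natural splines, 5 degrees of freedom each).

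The alternatives were DESeq2 1.42.0, limma 3.58.1 (voom, and on log2 of RPKM plus 0.1, 0.5 or 1 and of TPM plus 1), other scalings and filters, a replicate block, the name style as covariate and each library left out. Shares with the trend divided out were added after the data were seen. The fits were tested on simulated data. The members and lists were chosen with earlier results of these data known. Genes named from each pathway list are the 4 with the smallest p in the fit of all 6 libraries, the 3 genes most like Gria1 and Gria2 are named too, and others are marked as chosen after their values were seen. Pick1 and Itgam, on the lists, were not analysed here. Figures were drawn with matplotlib 3.10.9.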

Additional observations from a re-analysis of the deposited data

Results flagged for a closer look

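For 6 of the 10 genes the difference between Tlr7-/- replicates 2 and 3 and Tlr7-/- replicate 1 was itself called. That call was made for 31.6% of all genes tested, so libraries of 1 genotype differed beyond the pooled spread (edgeR adjusted p under 0.05). The log2 difference was 0.71 for Gria2, 0.84 for Gria3, 0.44 for Gria4, -0.80 for Cacng8, -0.95 for Cnih2 and 0.41 for Cnih3. With trends in GC content and transcript length taken out, Gria3 (0.41) and Cnih3 (0.53) were still called. These were 2 of the 10, against 18.8% of all genes tested.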

How the results depend on the processing

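With all 6 libraries the count of the 10 genes called was 0. It was 3 with DESeq2's Wald test, 0 to 6 with a library left out and 6 in the fit with 3 groups for Tlr7-/- replicates 2 and 3 against WT. DESeq2 called 13.7% of the 12849 genes to which it gave an adjusted p, and the fit with 3 groups 49.6% of all genes tested. With a library left out 0 to 6921 genes were called, each fit having its own filter on low counts. The 6 came without Tlr7-/- replicate 1 and were Gria2, Gria3, Gria4, Cacng3, Cacng8 and Cnih2. For the 107 pathway genes the count of 0 became 18 with DESeq2 and 70 without Tlr7-/- replicate 1, the highest of 0 to 70 with a library left out. The same settings called 13.7% of those 12849 genes with DESeq2 and 6921 genes in all without Tlr7-/- replicate 1. For Tlr7-/- replicates 2 and 3 against replicate 1 the count of 6 became 2 with the trends in GC content and length removed. The difference in the Gria2 share was 5.67 percentage points, 3.69 to 7.47 with a library left out and -1.24 with the trend divided out. The causes were not tested.

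Several log2 fold changes changed sign. Removal of the trends in GC content and length, with all libraries, turned Gria1 to -0.030, Gria2 to -0.035, Cacng8 to 0.58, Cnih2 to 0.098 and Cnih3 to 0.12. Together with the replicate block the values were -0.032, -0.034, 0.56, 0.095 and 0.10. In replicates 2 and 3 against WT it turned Gria1 to -0.030, Gria2 to -0.057, Cacng8 to 0.72 and Cnih2 to 0.077. In replicate 1 against WT it turned Gria1 to -0.032 and Cacng2 to -0.045. Against replicate 1, replicates 2 and 3 had -0.063 for Gria2, 0.096 for Cacng4 and 0.46 for Cacng8. With the name style as a covariate the fit compares Tlr7-/- replicate 1 alone with WT, since only replicates 2 and 3 carry the second style. It thus repeated the values of that contrast, -0.0097 for Gria4, 0.20 for Cacng8 and 0.048 for Cnih2. Values near 0 changed sign elsewhere. Cacng4 with all libraries had -0.034, -0.034 and -0.033 on log2 RPKM with pseudocounts of 0.1, 0.5 and 1, and Cnih3 had 0.067 on log2 TPM. Scaled by library size alone, Cacng2 in replicate 1 had -0.0077, and Cacng4 in replicates 2 and 3 against replicate 1 had 0.030. With at least 10 counts in every library the latter had 0.00075. With a library left out of the fit of both whole groups, Cacng4 ranged from -0.085 to 0.14 and Cnih3 from -0.11 to 0.10. In replicate 1 against WT, Gria4 then ranged from -0.039 to 0.0069, Cacng2 from -0.039 to 0.049 and Cacng4 from -0.011 to 0.087. In replicates 2 and 3, Cacng4 ranged from -0.21 to 0.24 against WT, and from -0.24 to 0.20 against replicate 1, where Cacng3 ranged from -0.026 to 0.11.

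The labels give both genotypes replicate numbers 1 to 3 but name no pairing. Deviations from the group mean correlated at 0.215, -0.122 and 0.216 over 13947 genes for the same numbers. For unlike numbers the values ran from -0.254 to 0.146. With 3 libraries a group, and replicate 1 of Tlr7-/- far from replicates 2 and 3, these values cannot decide whether equal numbers mark a shared culture. With a replicate block 0 of the 10 genes were called, against 0 of all genes tested, and Gria2 had 0.70. Each of the 10 genes had at least 757 counts in every library. With 3 libraries a group and Tlr7-/- libraries of unlike composition, a p over the threshold does not show that levels were equal.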
